A study of Mus musculus with 10 samples.

Results

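The mitochondrial ribosomal proteins were taken as every gene whose symbol in the deposited comparison table starts with Mrpl or Mrps followed by a digit, joined to the count files by Entrez gene identifier. This gave 76 genes of the 13568 tested and of 24454 in the count files, of which 47 are named for the large subunit (Mrpl) and 29 for the small subunit (Mrps). The rule uses the symbol and no fold change or p-value, and was set with earlier results of these data known. The deposited table holds only genes above a filter on low counts, so that all 76 pass it by construction. The study asked what the loss of STAT5 in adipocytes does to brown adipose tissue (BAT), a tissue in which heat production depends on densely packed mitochondria. RNA-Seq libraries from BAT of 5 control and 5 Stat5Adipoq mice, 1 library per mouse, were compared. Control mice were Stat5 floxed, Adipoq-Cre negative littermates, although their label reads wild type. In Stat5Adipoq mice the Adipoq promoter drives Cre, so that Stat5a and Stat5b are deleted in adipocytes while the vessels, nerves and immune cells of the tissue keep them. All mice were males of 2 months on the C57BL/6N background, fed a standard diet ad libitum, and the sample titles call their state basal.

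The mitochondrial ribosome translates the few mRNAs of the mitochondrial genome, all of which code for subunits of the respiratory chain and of ATP synthase. Its RNA comes from the mitochondrial genome, while all of its proteins are encoded in the nucleus, made in the cytosol and imported. The small subunit binds the mRNA and holds the decoding centre. The large subunit joins the amino acids and holds the exit tunnel. Some of these proteins have counterparts in bacterial ribosomes and others are particular to mitochondria.

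The names do not match the structure of the ribosome for 3 members. Mrps18a and Mrps30 sit in the large subunit, and Mrps36 is now known as a component of the alpha-ketoglutarate dehydrogenase complex. By structure, 49 members belong to the large subunit, 26 to the small subunit and 1 to neither. A further gene of the family, Mrpl58, appears in the deposited table under its older name Ict1 and is described with the other subunits. Mrpl23 had 29 counts over the 10 libraries and fell below the filter.

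The libraries held 8488129 to 19514904 counts on genes. Stat5a lay at 86.9 to 130 CPM (counts of a gene relative to the total of its library, scaled by TMM, a correction for library composition) in control and 15.8 to 20.7 CPM in Stat5Adipoq BAT (log2 fold change -2.62, SE 0.12), and Stat5b at 76.6 to 91.9 and 21.04 to 22.9 CPM (-1.94, SE 0.06). With all genes tested by the quasi-likelihood test of edgeR at an adjusted p of 0.05, 190 were higher and 178 lower in Stat5Adipoq BAT. The 10 brown adipocyte markers examined were all detected, summing to 18928 to 29809 CPM in control and 20846 to 26147 CPM in Stat5Adipoq BAT. Ucp1 and Fabp4 made up most of this sum. Without Ucp1 it ran from 13526 to 16560 CPM in control and from 13003 to 14395 CPM in Stat5Adipoq BAT. Single markers had log2 fold changes from -1.07 to 0.27, with 6 below and 4 above 0, and 0 passed edgeR at the adjusted threshold. Control replicate 3 stood apart. Its 11 skeletal muscle markers summed to 4908 CPM, against 6.17 to 400.4 CPM in the other control and 3.08 to 55.8 CPM in the Stat5Adipoq libraries, and its 9 liver markers summed to 279 CPM, against 60.8 to 190.2 and 30.6 to 84.8 CPM. In edgeR, 0 of the 11 muscle markers passed the adjusted threshold, while all 11 had an unadjusted p below 0.05 and were lower in Stat5Adipoq BAT. DESeq2 called 4 of them lower and gave the others no adjusted p. Of the 9 liver markers, edgeR called 1, Cyp2e1, lower in Stat5Adipoq BAT. Cyp2e1 made up most of the liver sum in every library, so that the ranges of this sum mainly follow Cyp2e1. It had 180.1 CPM in control replicate 3 and 58.7 to 188.2 CPM in the other controls. All other liver markers were highest in control replicate 3, such as Alb with 38.7 CPM, against 0.15 to 0.67 CPM in the other controls. Whether Cyp2e1 came from liver RNA was not tested. In bulk tissue, fewer cells of a type and less RNA per cell cannot be told apart.

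Promoters are shown for 4 members, chosen to display the letters that were searched. The windows come from RefSeq (GRCm38.p6) and run from 250 bases before to 50 bases after the start of the gene. Windows were found for 67 of the 76 members, 73 in all. The motifs searched on both strands were TTCNNNGAA for STAT5, GCGCATGC for NRF1, CCGGAAGT for GABPA and AAGATGGC for YY1. NRF1, GABPA and YY1 are factors known to act at promoters of nuclear genes for mitochondrial proteins. In the sequences, given 5′ to 3′ on the strand of the gene, capitals mark the matches, and a match on the other strand appears as its reverse complement. Mrpl30 (chr1:37890227-37890526, plus strand) holds the STAT5 letters at 2 places. Mrpl32 (chr13:14612988-14613287, minus strand) holds NRF1 matches, some of them overlapping, and a YY1 match. Mrpl33 (chr5:31613701-31614000, plus strand) holds an NRF1 and a GABPA match side by side. Mrps11 (chr7:78782881-78783180, plus strand) holds a YY1 match.
Mrpl30: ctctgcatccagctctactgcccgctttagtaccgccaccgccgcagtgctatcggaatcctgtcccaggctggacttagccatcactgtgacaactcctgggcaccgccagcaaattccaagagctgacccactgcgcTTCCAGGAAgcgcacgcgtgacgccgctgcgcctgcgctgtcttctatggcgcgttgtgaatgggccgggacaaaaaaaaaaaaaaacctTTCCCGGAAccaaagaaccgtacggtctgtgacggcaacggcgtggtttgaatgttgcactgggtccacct
Mrpl32: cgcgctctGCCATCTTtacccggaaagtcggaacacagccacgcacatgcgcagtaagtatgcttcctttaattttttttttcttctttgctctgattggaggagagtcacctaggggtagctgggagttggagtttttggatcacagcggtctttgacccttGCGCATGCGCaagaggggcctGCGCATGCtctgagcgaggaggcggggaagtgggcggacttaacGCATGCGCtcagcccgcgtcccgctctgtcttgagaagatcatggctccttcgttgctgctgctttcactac
Mrpl33: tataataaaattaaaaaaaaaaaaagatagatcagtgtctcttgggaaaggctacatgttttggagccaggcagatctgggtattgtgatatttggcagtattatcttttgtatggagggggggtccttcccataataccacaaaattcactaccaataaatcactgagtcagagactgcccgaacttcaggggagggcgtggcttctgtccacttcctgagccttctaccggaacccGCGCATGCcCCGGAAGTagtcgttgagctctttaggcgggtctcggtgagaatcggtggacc
Mrps11: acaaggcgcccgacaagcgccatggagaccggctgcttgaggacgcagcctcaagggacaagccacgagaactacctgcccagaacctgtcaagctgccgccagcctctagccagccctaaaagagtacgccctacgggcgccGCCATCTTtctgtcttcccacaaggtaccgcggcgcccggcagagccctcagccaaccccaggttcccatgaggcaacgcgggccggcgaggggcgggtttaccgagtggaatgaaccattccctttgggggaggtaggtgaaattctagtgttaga

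The STAT5 letters were found in 6 of the 73 member windows, or 8.22%, against 6.84% of the 13708 windows of tested genes and 8.3% of all 32851 windows. NRF1 letters were in 8 member windows (11%, against 4.84% of the windows of tested genes and 2.71% of all windows), GABPA letters in 12 (16.4%, against 7.56% and 3.89%) and YY1 letters in 12 (16.4%, against 4.13% and 2.75%). Any of these 3 motifs was present in 29 member windows, 39.7%, against 15.4% of the windows of tested genes and 8.83% of all windows. Matches of different motifs shared no bases in the member windows. A match is a description of the letters and not a site of binding. The 6 members with the STAT5 letters were Mrpl30, Mrpl34, Mrpl42, Mrpl50, Mrps22 and Mrps25. Their log2 fold changes ran from -0.21 to 0.06, with 3 below and 3 above 0. The 12 members with GABPA letters ran from -0.14 to 0.09 with 10 below 0, the 12 with YY1 letters from -0.12 to 0.11 with 7 below 0, and the 8 with NRF1 letters from -0.14 to 0.11 with 4 below 0. The 34 members whose windows held none of the 4 motifs ran from -0.25 to 0.17 with 25 below 0.

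Some members start back to back with another gene of the mitochondrial gene expression system. The starts of Mrps11 and Mrpl46, which code for a small and a large subunit protein, lie 42 bases apart on chromosome 7. Mrps12 starts 147 bases from Sars2, the mitochondrial seryl-tRNA synthetase, and Mrpl43 starts 116 bases from Peo1, the mitochondrial DNA helicase also called Twinkle. The log2 fold changes of the partners were -0.12 and -0.06 for Mrps11 and Mrpl46, -0.00 and -0.07 for Mrps12 and Sars2, and -0.14 and 0.04 for Mrpl43 and Peo1. These pairs were picked for their positions, and none of the genes passed the test.

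Loss of STAT5 in adipocytes was not accompanied by a detectable change of any mitochondrial ribosomal protein mRNA at the adjusted threshold in edgeR. Of the 76 members, 0 passed edgeR at an adjusted p of 0.05, where 2.71% of all tested genes did (1.31% lower and 1.4% higher), and 0 passed limma-voom. DESeq2 called 1 member, Mrps16, lower in Stat5Adipoq BAT, where it called 4.86% of the genes it tested. At an unadjusted p of 0.05 in edgeR, 6 members were lower and 2 higher, against 8.03% of all tested genes lower, 7.18% higher and 15.2% in either direction, and 8 of 76 lies below that last share. The log2 fold changes of Stat5Adipoq over control ran from -0.25 to 0.17. The smallest adjusted p among the members was 0.095.

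The data bound the size of any change more closely here than for most genes. For all 76 members the 95% limits of the fold change lay within 1.5-fold in either direction, which held for 69.5% of all tested genes. Limits within 1.25-fold were reached by 64 members, 84.2%, against 41.1% of all tested genes. The median SE of the members' log2 fold changes was 0.07, against 0.11 over all tested genes. The members' mean counts per library ran from 65.5 (Mrps33) to 2265 (Mrpl12), with a median of 619.4. Taken singly, the widest limits among the members were those of Mrps36 (SE 0.21), at -27.0% to 35.9% relative to the control level. The absence of a call for a member does not mean the absence of a change within its own limits.

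**Figure D1:**
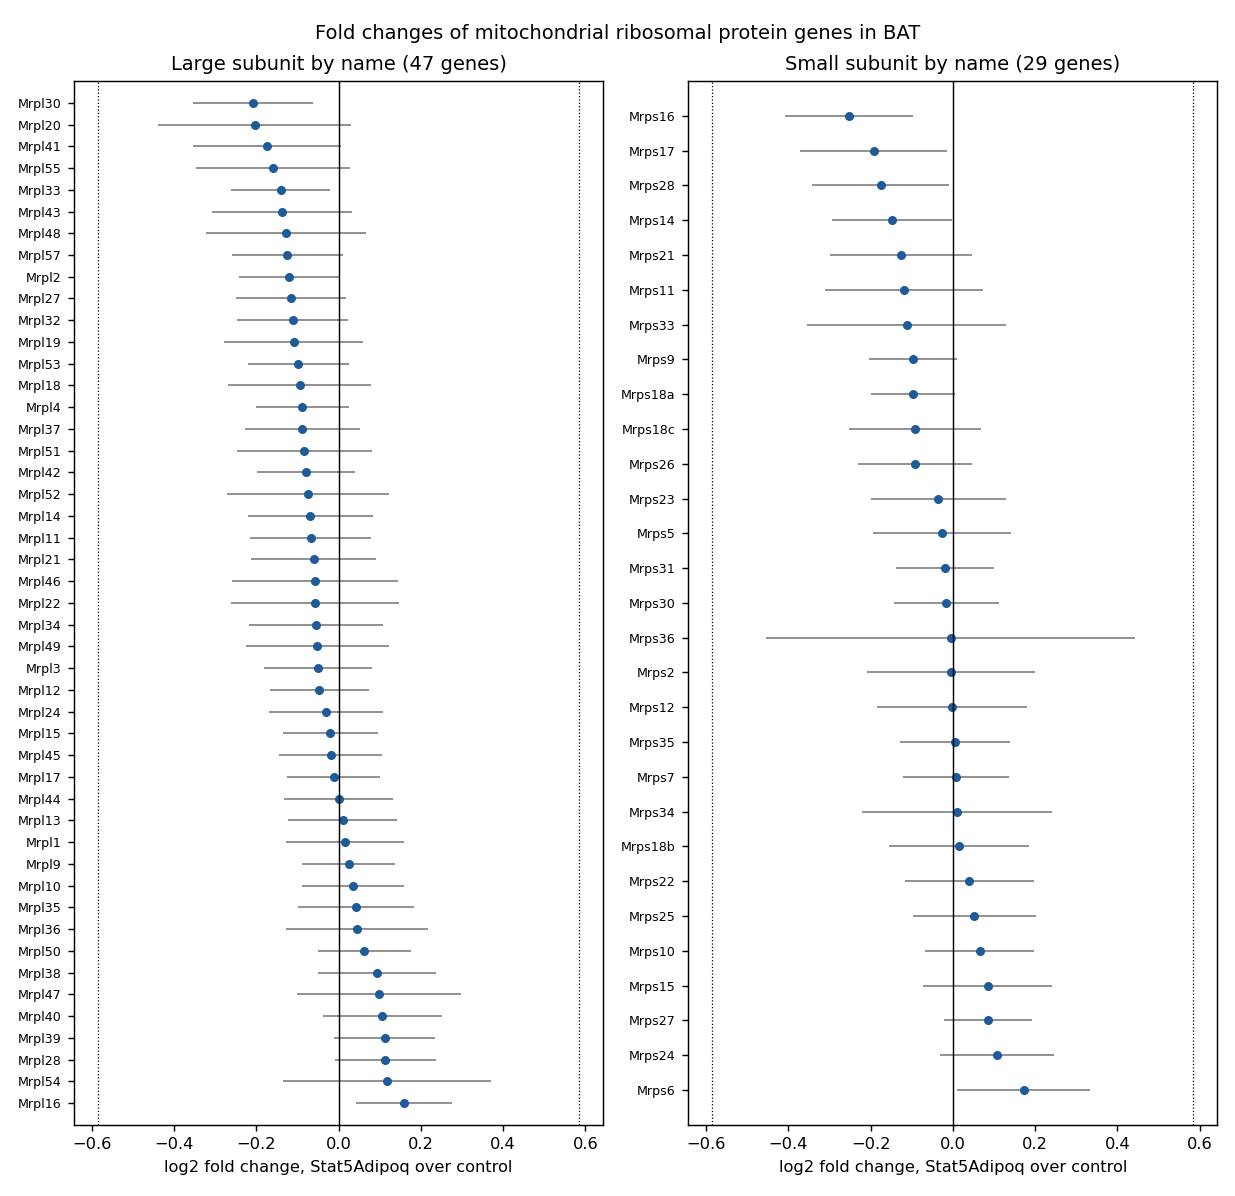
Log2 fold change (x axis, Stat5Adipoq over control) of each of the 47 members named for the large subunit (left) and the 29 named for the small subunit (right), with 95% limits as bars and 1.5-fold in either direction as dotted lines. All points lie between -0.25 and 0.17, and all bars lie inside the dotted lines.

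Small shifts lay more often below than above 0. The log2 fold change was below 0 for 50 of the 76 members, or 65.8%, against 50.8% of all tested genes, and its median was -0.05, against -0.00 over all tested genes. The large subunit members had a median of -0.06 with 32 of 47 below 0, and the small subunit members a median of -0.02 with 18 of 29 below 0. Grouping by structure left these at -0.06 for the 49 large subunit members and -0.01 for the 26 small subunit members. Without control replicate 3, 43 of the 76 members lay below 0, and the medians were -0.03 for the large and 0.01 for the small subunit. Scaling by library size alone put 57 members below 0, with the median of all tested genes at -0.02.

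The levels of the members of each subunit were also summed by library. Large subunit members summed to 3191, 3160, 3431, 3078 and 3043 CPM in control replicates 1 to 5 and to 3018, 3079, 3166, 3108 and 3130 CPM in Stat5Adipoq replicates 1 to 5. Small subunit members summed to 1500, 1475, 1587, 1475 and 1387 CPM in control and to 1424, 1435, 1522, 1447 and 1454 CPM in Stat5Adipoq BAT. Control replicate 3 was the highest library for both sums, and the ranges of the genotypes overlapped.

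The mean of the large subunit sum in Stat5Adipoq BAT was 0.975 times that in control, and that of the small subunit sum 0.981 times. Without control replicate 3 these ratios were 0.994 and 0.998. The large subunit sum was 2.09 to 2.19 times the small subunit sum in the control libraries (mean 2.14 ± 0.04, SD, n = 5) and 2.08 to 2.15 times in the Stat5Adipoq libraries (2.13 ± 0.03, SD, n = 5). The balance of the subunits' mRNA varied by a few percent over the 10 libraries, with overlapping ranges in the genotypes. Together the members took 0.453 to 0.492% of all counts in control and 0.440 to 0.478% in Stat5Adipoq BAT.

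**Figure D2:**
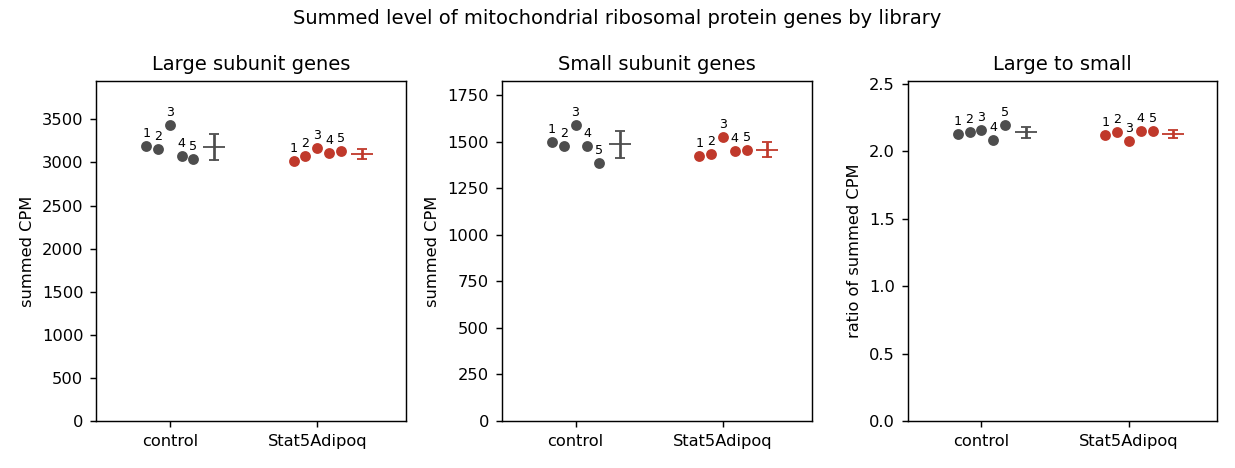
Summed CPM of the large subunit members (left), of the small subunit members (middle) and the ratio of these sums (right) in each library, with replicate numbers beside the points and mean and SD beside each group of 5. Control replicate 3 is highest in both sums, at 3431 and 1587 CPM, while the ratio stays between 2.08 and 2.19 in all 10 libraries.

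Control replicate 3 had the highest CPM of all 10 libraries for 38 of the 76 members, while the other libraries were highest for 1 to 9 members each. The median deviation of the members' log2 CPM in this library from their means over libraries was 0.12, and it lay between -0.06 and 0.03 in the other 9. Over all tested genes the library medians of the same deviation lay between -0.00 and 0.01. This is the library with the muscle and liver markers given above. It also held the most Ucp1, at 13831 CPM, against 5402 to 10111 CPM in the other control and 7843 to 12661 CPM in the Stat5Adipoq libraries. Stat5Adipoq replicates 3, 4 and 5 had 11866, 12498 and 12661 CPM of Ucp1, with median deviations of the members of 0.03, -0.02 and -0.01. A link between Ucp1 and the members' levels was not tested. The part of muscle RNA in the members' levels was not tested.

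**Figure D3:**
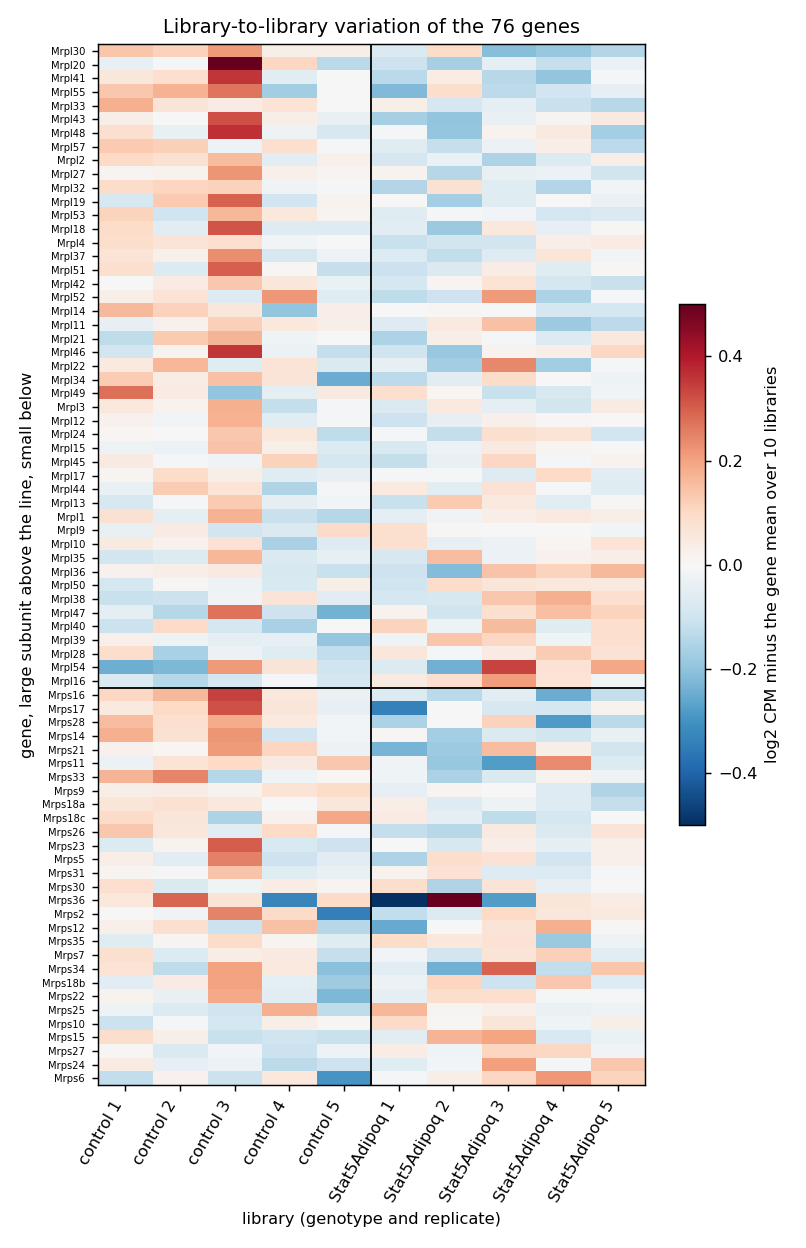
Log2 CPM of each of the 76 members (rows) in each library (columns), minus the mean of the member over the 10 libraries, with the colour scale limited at 0.5 in either direction. The column of control replicate 3 is mostly red, as this library was the highest for 38 members, and no block of genes separates the genotypes.

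The member with the lowest log2 fold change, and the only members without overlap between the genotypes, belong to the small subunit. Mrps16, an RNA-binding protein of the small subunit body encoded at chr14:20391222-20393634 on the minus strand, had 57.7, 60.1, 68.2, 55.8 and 52.5 CPM in the control libraries and 51.3, 48.9, 51.8, 45.3 and 49.4 CPM in the Stat5Adipoq libraries. All 5 control values lay above all 5 Stat5Adipoq values. The means were 58.9 ± 5.90 and 49.3 ± 2.58 CPM (SD, n = 5 each), a log2 fold change of -0.25 (SE 0.07, 95% limits -0.41 to -0.10). In edgeR this had an adjusted p of 0.095. DESeq2 gave an adjusted p of 0.042, and over all alternatives the adjusted p ran from 0.042 to 0.209. Without control replicate 3 the log2 fold change was -0.20.

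Mrps9, another small subunit protein (chr1:42851233-42905683, plus strand), had 57.5, 57.8, 57.1, 59.2 and 60.1 CPM in control and 54.8, 56.9, 56.3, 54.0 and 50.8 CPM in Stat5Adipoq BAT. Its groups did not overlap either, by a gap of less than 1 CPM. Its log2 fold change was -0.10 (SE 0.05, unadjusted p = 0.071 and adjusted p = 0.38 in edgeR). A complete separation of the genotypes was seen for 2 of 76 members, both lower in Stat5Adipoq BAT, against 4.39% of all tested genes, 2.04% lower and 2.35% higher. The exact two-sided permutation test gives any such gene 0.0079, the smallest p that 5 against 5 libraries allow. It therefore adds nothing to the separation by which these 2 members were picked.

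Mrps16, Mrps17, Mrps28 and Mrps14 were the small subunit members lower in Stat5Adipoq BAT with an unadjusted p below 0.05 in edgeR. Mrps9 was not among them. Mrps17 had 45.2, 46.8, 54.5, 45.5 and 42.5 CPM in control and 34.5, 43.7, 41.4, 41.1 and 44.3 CPM in Stat5Adipoq BAT, a log2 fold change of -0.19 (SE 0.08, adjusted p = 0.29 in edgeR). Mrps28 had 40.1, 38.2, 41.0, 37.4 and 35.7 CPM against 32.4, 36.2, 39.1, 29.6 and 32.8 CPM, a log2 fold change of -0.18 (SE 0.08). The genotypes overlapped for both genes, and Stat5Adipoq replicate 1 was lowest for Mrps17 and replicate 4 for Mrps28.

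In the large subunit the lowest values were those of Mrpl30 and Mrpl20. Mrpl30 (chr1:37890477-37898338, plus strand), whose promoter is printed above, had 158, 156, 166, 147 and 147 CPM in control and 137, 153, 124, 126 and 130 CPM in Stat5Adipoq BAT. Of the Stat5Adipoq libraries, only replicate 2 reached into the control range. The log2 fold change was -0.21 (SE 0.07, 95% limits -0.35 to -0.06, adjusted p = 0.14 in edgeR), and without Stat5Adipoq replicate 2 it was -0.26 with an adjusted p of 0.048 in edgeR. Over all alternatives the adjusted p ran from 0.048 to 0.308.

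Mrpl20, a protein that binds the ribosomal RNA early in assembly of the bacterial ribosome, had 85.5, 87.7, 128, 94.5 and 80.0 CPM in control and 81.9, 78.5, 84.9, 81.3 and 86.0 CPM in Stat5Adipoq BAT. Here control replicate 3 set the difference. The log2 fold change was -0.20 (SE 0.11, adjusted p = 0.41 in edgeR) with this library and -0.08 without it. Mrpl33, a small protein close to the exit site of the tRNA in the bacterial ribosome, lay at -0.14. Mrpl30 and Mrpl33 were the large subunit members lower in Stat5Adipoq BAT with an unadjusted p below 0.05, and Mrpl20 was not among them.

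The highest log2 fold changes belonged to Mrps6, Mrpl16, Mrpl54, Mrpl28 and Mrpl39. Mrps6 had 29.0, 32.0, 29.3, 32.8 and 25.8 CPM in control and 31.4, 32.2, 33.9, 36.7 and 34.1 CPM in Stat5Adipoq BAT, a log2 fold change of 0.17 (SE 0.07, adjusted p = 0.30 in edgeR). Of its exon bases, 36.1% are shared with another gene on the same strand, so that its counts are uncertain. Mrpl16, which in the bacterial ribosome lies beside the centre where peptide bonds form, had 66.6, 63.5, 65.9, 69.7 and 66.0 CPM in control and 72.4, 74.2, 81.1, 73.4 and 69.4 CPM in Stat5Adipoq BAT. Only control replicate 4 and Stat5Adipoq replicate 5 overlapped, and the log2 fold change was 0.16 (SE 0.05, adjusted p = 0.17 in edgeR). Mrpl54, Mrpl28 and Mrpl39, of which Mrpl54 and Mrpl39 are particular to mitochondria, had log2 fold changes of 0.12, 0.11 and 0.11 with adjusted p of 0.71, 0.37 and 0.38 in edgeR, and their groups overlapped.

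**Figure D4:**
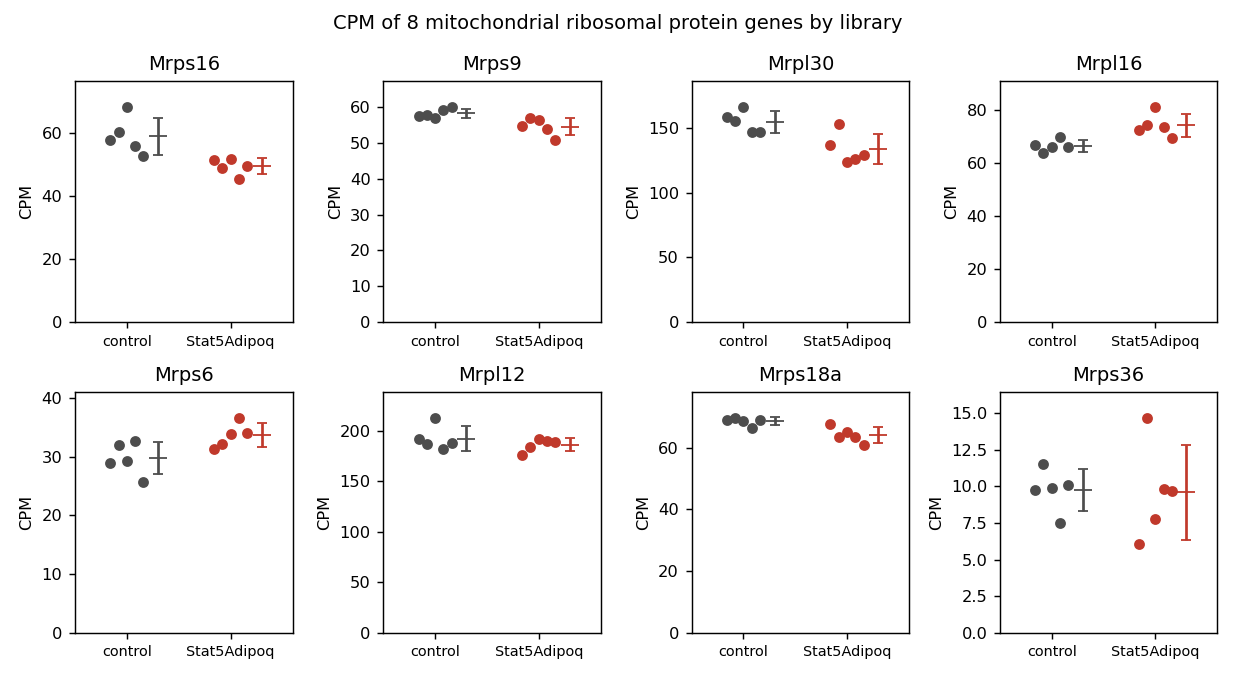
CPM of 8 members in each library, control in grey and Stat5Adipoq in red, with mean and SD beside each group of 5 and y axes that start at 0. The groups do not overlap for Mrps16 and Mrps9, overlap by 1 library on each side for Mrpl16, and overlap widely for Mrps36.

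The stalk members and Mrps12, of the decoding centre, had log2 fold changes from -0.07 to 0.03, against a median of -0.05 over all 76 members. The stalk of the large subunit recruits the translation factors and is built from Mrpl10, Mrpl11 and Mrpl12. Mrpl12 had the highest CPM of all members, with 192, 187, 213, 182 and 188 CPM in control and 176, 184, 192, 190 and 189 CPM in Stat5Adipoq BAT. Its log2 fold change was -0.05 (SE 0.06, 95% limits -0.17 to 0.07). Mrpl10, which anchors Mrpl12, lay between 116 and 136 CPM in control and between 126 and 137 CPM in Stat5Adipoq BAT, a log2 fold change of 0.03 that turned to -0.00 without control replicate 4. Mrpl11 lay at -0.07 (95% limits -0.21 to 0.08). Mrps12, a protein of the decoding centre, had a log2 fold change of -0.00 (95% limits -0.18 to 0.18) and changed sign when single libraries were left out.

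The Mrps18 paralogs, of which Mrps18c is closest to the bacterial protein, take different places in the mitochondrial ribosome. Mrps18a had 69.1, 69.8, 68.8, 66.3 and 68.9 CPM in control and 67.7, 63.4, 65.1, 63.3 and 60.9 CPM in Stat5Adipoq BAT. Its groups overlapped through control replicate 4 alone, and its log2 fold change was -0.10 (SE 0.05, adjusted p = 0.36 in edgeR). Mrps18b and Mrps18c lay at 0.02 and -0.09. Words of 50 bases, the length of the reads, were taken from the longest transcript of each member. They were sought in annotated transcripts of other genes on either strand. For Mrps18b, 63.7% of the words occur there, and 59.1% of its exon bases face a gene on the opposite strand. Such an overlap counts towards both shares, so that they are not separate measures. The counts of Mrps18b are uncertain.

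Mrps30, a large subunit protein by structure, had a log2 fold change of -0.02 (95% limits -0.14 to 0.11). Mrps36, the member that is no ribosomal protein by current knowledge, had 9.77, 11.5, 9.86, 7.48 and 10.05 CPM in control and 6.04, 14.7, 7.76, 9.80 and 9.67 CPM in Stat5Adipoq BAT. It spread most among the libraries, and its 95% limits of -0.45 to 0.44 were the widest among the members. Of the words of 50 bases in its longest transcript, 36.2% occur in transcripts of other genes. Among all members, 12 had more than 20% of such words in transcripts of other genes, overlapping genes included. The other 64 had a median log2 fold change of -0.04, with 41 below 0 and 0 called by edgeR.

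The 44 members with a bacterial counterpart had a median log2 fold change of -0.05, with 30 below 0. The 31 that are particular to mitochondria had a median of -0.03, with 19 below 0. An unadjusted p below 0.05 was reached by 8 of the 44 and 0 of the 31, against 15.2% of all tested genes. In each group 0 members passed edgeR at the adjusted threshold. These tests compare genotypes for single genes, and the difference between the groups was not tested. The 35 large subunit members outside the rule for named genes had log2 fold changes from -0.17 to 0.11 and mean levels from 15.6 to 119.7 CPM. The 14 such small subunit members had log2 fold changes from -0.15 to 0.11.

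Levels were compared between genes as CPM per kb of transcript, with the median length of the annotated coding transcripts. The large subunit members spanned 8.14 to 218 CPM per kb with a median of 43.0, and the small subunit members 6.57 to 97.9 with a median of 36.9. At this scale the highest large subunit members were Mrpl30 with 218, Mrpl42 with 196 and Mrpl20 with 179.9 CPM per kb, and the highest small subunit members by name were Mrps21 with 97.9, Mrps18a with 88.2 and Mrps23 with 75.4. The lowest were Mrpl57 with 8.14 and Mrpl19 with 8.26 in the large subunit, and Mrps25 with 6.57 and Mrps26 with 6.68 in the small subunit. The ribosome holds its proteins in fixed proportion, apart from the stalk, while the mRNA levels per kb of the large subunit members differed 26.8-fold between the highest and the lowest. These levels rest on the annotated lengths, which are 6073 bases for Mrps25 and 4278 for Mrps26. RefSeq places the whole Mrps26 gene at chr2:130563757-130565394, a span shorter than the length used, so that its low rank is uncertain. Counts cover all exons of a gene, which can hold more bases than the median transcript. All exons hold 926 bases for Mrpl20, against the 494 used, and 973 for Mrpl30, against 662. The order of the highest and lowest members and the span therefore depend on the length chosen. For Mrps25 and Mrpl19, 73.9% and 40.3% of the words of 50 bases occur in transcripts of other genes. Of their exon bases, 58.2% and 39.2% face a gene on the opposite strand. As for Mrps18b, such an overlap counts towards both shares, and the counts of Mrps25 and Mrpl19 are uncertain. Among the highest and lowest genes, log2 fold changes were -0.08 for Mrpl42, -0.13 for Mrps21, -0.03 for Mrps23, -0.12 for Mrpl57, -0.11 for Mrpl19, 0.05 for Mrps25 and -0.09 for Mrps26, with 0 called by edgeR.

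The order of the members was almost the same in the genotypes. Across the 76 members, the mean log2 CPM per kb in Stat5Adipoq BAT followed that in control with a Pearson correlation of 0.997 and a Spearman correlation of 0.994, which is a description across genes that share libraries and lengths. Within each subunit, the middle 50% of the members spanned a 2.74-fold range for the large and a 2.52-fold range for the small subunit.

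**Figure D5:**
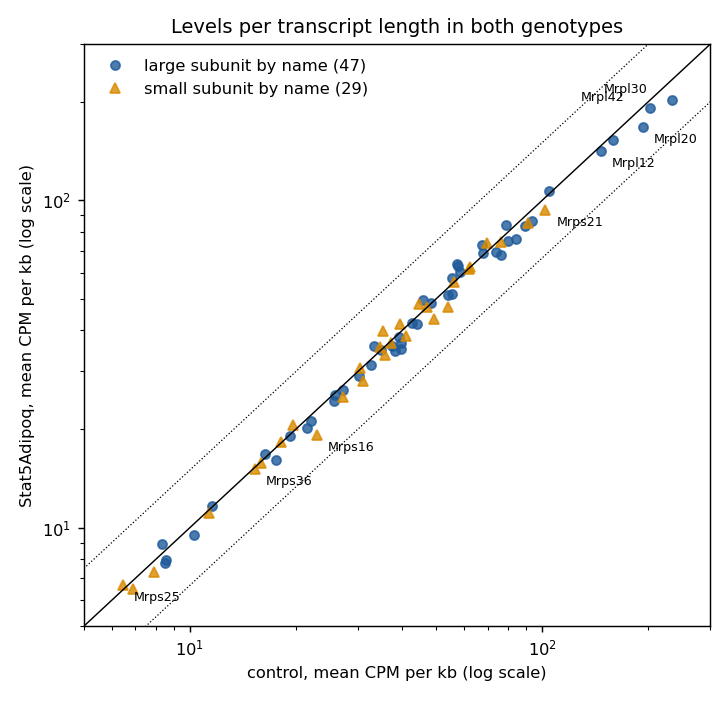
Mean CPM per kb of transcript in control (x axis) and Stat5Adipoq BAT (y axis) for each member, both on log scales, with circles for the large and triangles for the small subunit by name. The solid line marks equal levels and the dotted lines 1.5-fold in either direction, and all 76 points lie between the dotted lines.

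Subunits of the mitochondrial ribosome that carry other gene names were examined as a list of 6, all tested, and 0 passed edgeR. The lowest was Ict1 (Mrpl58), a peptidyl-tRNA hydrolase built into the large subunit that frees stalled ribosomes. It had 46.3, 45.02, 49.5, 36.3 and 43.3 CPM in control and 37.6, 36.3, 36.0, 37.7 and 36.4 CPM in Stat5Adipoq BAT. Control replicate 4 alone lay among the Stat5Adipoq values. The log2 fold change was -0.26 (SE 0.08, adjusted p = 0.10 in edgeR), and Ict1 was called when control replicate 4 was left out. Aurkaip1 lay at -0.13 (SE 0.05, adjusted p = 0.28 in edgeR), and Dap3, Chchd1, Ptcd3 and Gadd45gip1 lay between 0.00 and 0.04.

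The genes that assemble the ribosome, feed it and control it were taken from lists of known members. Of 26 tested genes for assembly of the mitochondrial ribosome, 0 passed edgeR at the adjusted threshold and 1 had an unadjusted p below 0.05, the GTPase gene Mtg2 at 0.18 (SE 0.07, adjusted p = 0.21 in edgeR). Of 33 tested genes for mitochondrial translation factors, aminoacyl-tRNA synthetases and mRNA handling, 0 passed and 4 had an unadjusted p below 0.05. Of all tested genes, 15.2% had an unadjusted p below 0.05, and both 1 of 26 and 4 of 33 lie below that share. The 4 genes included Pars2 at 0.29, Iars2 at 0.11 and Slirp at -0.18. Pars2 and Iars2 charge mitochondrial tRNAs and Slirp stabilises mitochondrial mRNAs. The median log2 fold change of the 33 was 0.05 with 24 above 0, against -0.05 and 26 above 0 for the 76 ribosomal protein genes, and the difference was not tested. Iars2 had 300, 286, 294, 282 and 287 CPM in control and 314, 306, 303, 314 and 322 CPM in Stat5Adipoq BAT, without overlap, and an adjusted p of 0.28 in edgeR.

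Among 12 tested genes for mitochondrial transcription and DNA maintenance, 0 passed edgeR, with Tfam, which packages mitochondrial DNA, at 0.05 and Polrmt, the mitochondrial RNA polymerase, at -0.05. Among 10 regulators of mitochondrial biogenesis 0 passed. Gabpa, the factor whose letters were found in 12 member promoters, had 87.4, 92.8, 97.9, 96.7 and 104 CPM in control and 114, 106, 118, 98.7 and 115 CPM in Stat5Adipoq BAT, a log2 fold change of 0.20 (SE 0.07, adjusted p = 0.14 in edgeR). Ppargc1a, the coactivator of mitochondrial biogenesis, lay at 0.38 (SE 0.19, adjusted p = 0.37 in edgeR), and Nrf1 and Yy1 lay at 0.02 and -0.02. The mRNAs encoded by the mitochondrial genome, which the ribosome translates, were not analysed here.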

How the data were processed

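The samples were RNA-Seq libraries of mouse BAT, 5 control and 5 Stat5Adipoq, assigned to genotype and replicate from the labels. Per the methods and the submitters' processing notes, the authors aligned single reads of 50 bases to GRCm38 with STAR 2.5.0b and counted them over exons with featureCounts 1.5.0-p1. The library kit keeps strand, but the strand setting of the counting is not given in the sources used here, so counts of overlapping genes are uncertain. The deposited values used are raw counts per gene. A deposited table of the authors' comparison, which also holds fold changes and p-values (DESeq2 1.16.1), served only to pair identifiers with symbols.

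Genes were kept where the counts divided by DESeq2 size factors summed to more than 45 over the 10 libraries. Genotypes were compared by the quasi-likelihood F test of edgeR 4.0.16 with TMM scaling, no covariate and Benjamini-Hochberg adjustment over all 13568 genes, with DESeq2 1.42.0 and limma 3.58.1 (voom) as alternatives. SEs were derived from the F statistic. For single genes, an exact permutation test (two-sided, on log2 CPM) used all 252 assignments of libraries. The test was tried on simulated data. CPM per kb used the median length of the coding transcripts of a gene in GENCODE for GRCm38. Words of 50 bases from the longest transcript of each member were compared with annotated transcripts of other genes on both strands. The p-values of the fits set the difference between genotypes against the spread between libraries, 1 per mouse. The depth gives the precision stated with each value, and the SE covers counting error as well as the spread between mice.

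The members, lists and rule for named genes were chosen with earlier results of these data known. Named were members called or without overlap, the 5 highest and 5 lowest log2 fold changes, the 3 highest and 2 lowest levels per kb in each subunit, Mrpl10, Mrpl11, Mrpl12, Mrps12, Ict1, the Mrps18 paralogs, Mrps30 and Mrps36, and genes of the lists of other subunits and of regulators. Members named beyond this, such as those below an unadjusted p of 0.05, were chosen after their values were seen. Values of 1 list gene are not reported here. Alternatives were other tests, scalings, filters, a replicate block and leaving out each library.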

Additional observations from a re-analysis of the deposited data

Results flagged for a closer look

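Of 100 groups of 5 libraries examined over the named members, their sums, the other subunits, the regulators of biogenesis and the Stat5 genes, 7 held a library whose gap to the nearest other value exceeded the critical share of the range for groups of 5. Chance gives about 1 in 20 such groups. For Mrps18a, control replicate 4 was low at 66.3 CPM, with the remaining controls at 68.8 to 69.8 CPM. Mrps25 had 44.6 CPM in Stat5Adipoq replicate 1, against 38.9 to 40.5 CPM. Aurkaip1 had 101 CPM in Stat5Adipoq replicate 2, against 87.9 to 90.7 CPM, and Stat5a had 20.7 CPM in Stat5Adipoq replicate 1, against 15.8 to 16.6 CPM.

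Control replicate 3 was the distant library for the other 3 genes. Mrps23 had 123 CPM there, while the remaining controls had 93.1 to 101.2 CPM, Ptcd3 166 CPM against 115 to 127 CPM, and Gabpb2 59.5 CPM against 49.0 to 50.4 CPM. This library also held 4908 CPM of skeletal muscle markers, whose part in these values was not tested.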

How the results depend on the processing

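DESeq2 called 655 of all genes against 368 in edgeR, and 1 member, Mrps16, against 0, and the cause was not tested. No member was called by limma-voom, under other scalings or filters, or with the replicate block. Leaving out single libraries gave 185 to 443 called genes, 0 to 1 members (Mrpl30 without Stat5Adipoq replicate 2) and 0 to 1 genes of the related lists (Ict1 without control replicate 4). The count of called genes moved by over 1.5 times without control replicate 1 (224), 2 (213) or 4 (221) and without Stat5Adipoq replicate 3 (185), 4 (193) or 5 (191).

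Signs changed for 6 named members. Mrps36 was 0.00556 with limma-voom, and Mrps18b was -0.00487 with scaling by library size alone. With single libraries left out, log2 fold changes ran from -0.0458 to 0.0551 for Mrps12, -0.0418 to 0.019 for Mrps30, -0.224 to 0.121 for Mrps36, -0.0645 to 0.0427 for Mrps23, -0.00311 to 0.0567 for Mrpl10 and -0.0236 to 0.0677 for Mrps18b. The median ran from -0.07 to -0.03 for the large subunit and from -0.04 to 0.01 for the small subunit, positive only without control replicate 3.

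Control and Stat5Adipoq libraries share replicate numbers, but deviations of same-numbered libraries correlated at -0.23 to 0.09 and libraries 2 and 4 alone matched best with their own number, so the number marks no pairing that the data show. With the replicate block, 273 genes and 0 members were called. Depth limits the least counted members, Mrps33 and Mrps36, with means of 65.5 and 116.4 counts per library. The wide limits of Mrps36 go with its spread among the Stat5Adipoq libraries (SD 0.47 on the log2 scale).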

Other observations

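Cytosolic ribosomal proteins, which build the ribosome that translates nuclear mRNAs, were examined beside the mitochondrial ones. Of 74 tested genes, 0 passed edgeR at the adjusted threshold, 0 passed DESeq2, and 6 had an unadjusted p below 0.05, all lower in Stat5Adipoq BAT, where 8.03% of all tested genes were lower at this threshold. Their median log2 fold change was -0.07 with 51 of 74 below 0. Rpl18 lay at -0.23 (SE 0.07, adjusted p = 0.13 in edgeR) and Rps14 at -0.15. Rps4x had 33.1 to 36.5 CPM in control and 28.3 to 33.0 CPM in Stat5Adipoq BAT without overlap, a log2 fold change of -0.13 (adjusted p = 0.33 in edgeR). Counts of this family are uncertain where reads match processed pseudogenes, and the 95% limits lay within 1.5-fold for 45 of the 74 genes, against 76 of 76 for the mitochondrial ribosomal proteins.

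Other cell type lists were examined in the same test, which 2.71% of all tested genes passed at the adjusted threshold in edgeR. Of 10 macrophage and 7 endothelial markers 0 passed edgeR. Of 6 white adipocyte markers 2 passed, Retn at -1.53 and Nrip1 at -0.78, and of 8 Schwann cell markers 1 passed, S100b at 1.07. S100b was the only Schwann cell marker above 0. The other 7 of the 8 lay below 0, and the median log2 fold change of the list was -0.70. DESeq2 called 1 of the 8 higher and 1 lower in Stat5Adipoq BAT.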
